A study of Mus musculus with 24 samples.

Results

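The change in liver transcript levels between a day and a night time was compared between mice with and without the clock transcription factor BMAL1 in hepatocytes. The comparison used 12 of the 24 RNA-seq libraries of a mouse liver study, 3 in each of 4 groups, chosen by their labels. Floxed controls (F) were Bmal1f/f mice without Cre. Liver knockouts (LKO) carried the same floxed alleles with Alb-Cre, a Cre recombinase driven by the albumin promoter and therefore active chiefly in hepatocytes, so that other liver cells still have the gene. Livers were taken at CT2 and CT14, circadian times in the early subjective day and the early subjective night. Levels at these times alone cannot tell a shifted rhythm from a flatter one. The quantity tested was an interaction, the time difference in LKO (CT14 minus CT2) minus the time difference in F. The other 12 libraries, of global Bmal1 knockouts (KO) and wild types (WT) on a C57BL/6J background at the same times, served as a second comparison of the same form. The labels used here give neither age nor whether the 3 libraries of each group are separate mice. P-values therefore describe the spread among these samples, which may be technical.

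In the mammalian clock, BMAL1 pairs with CLOCK or its paralogue NPAS2 and activates genes through E-boxes, among them the repressors of the Per and Cry families, which then inhibit the pair. A second loop, in which REV-ERB receptors repress and ROR receptors activate through ROR elements, sets the rhythm of Bmal1 and Npas2. Output factors of the PAR-bZIP family (DBP, TEF and HLF) act on D-boxes in genes of liver metabolism. Rhythms in hepatocytes can also follow feeding, body temperature and hormones that reach the liver from outside.

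Total counts ran from 88995259 to 123949671 in the 12 libraries, which are estimates and not numbers of sequenced fragments. Bmal1, the targeted gene, was at 29.1, 29.8 and 26.6 CPM (counts relative to the scaled total of the library) in F at CT2 and at 3.26, 14.97 and 10.4 CPM in F at CT14. The LKO libraries were at 7.63, 7.91 and 6.57 CPM at CT2, against 5.96, 5.49 and 5.46 CPM at CT14. All LKO libraries were thus below all F libraries at CT2, whereas at CT14 the lowest F library was below the LKO libraries and the labels could not be checked with this gene. F CT2 replicate 3 and LKO CT2 replicate 3 stood apart, with mitochondrial shares of 1.37% and 1.82% against 2.66 to 4.92% in the other 10. Over all genes they lay 0.870 and 0.737 (root mean square, log2) from the mean of their group, and the others 0.515 to 0.718. Their levels of the Y-linked gene Ddx3y were 3.86 and 8.15 CPM, against 28.5 to 48.5 CPM. Pancreatic acinar transcripts (12 tested markers of 13 listed) summed to 2752 CPM in F CT2 replicate 3 and 842 CPM in F CT14 replicate 3, against at most 101.7 CPM in every other library of the series. The hepatocyte markers summed to 94513 CPM or more in each F library and to between 62020 and 87856 CPM in the LKO libraries.

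Of 20514 genes tested, 23 had a time difference in LKO that differed from that in F (edgeR quasi-likelihood test, Benjamini-Hochberg adjusted p under 0.05). They were 0.112% of the genes tested. In 11 genes the interaction was positive (0.0536%) and in 12 negative (0.0585%). The 23 included Npas2, Per3, Dbp, Tef and Wee1 of the clock and its outputs, and the metabolic genes Gys2, Acacb, Acss2, Papss2, Nmrk1 and Ppard. In F itself 545 genes differed between the times (2.66%), 273 higher and 272 lower at CT14 (1.33% each), and in LKO 174 did (0.848%), 91 higher and 83 lower. The count in LKO fell to between 10 and 59 when any 1 of its 6 libraries was left out, and that in F to 240 without F CT14 replicate 1. Of the 23 genes, 19 were called over time in F, and 17 of these were not called in LKO. Cdkn1a and Ngef were called in both genotypes with opposite signs, Lrrc59, Acacb and Acss2 only in LKO, and Slc30a10 in neither. In the authors' deposited DESeq2 comparisons, Ngef was not called in F (adjusted p = 0.161). Those comparisons did call Per3, Dbp and Slc30a10 over time in LKO (adjusted p = 0.0347, 0.0015 and 0.0104). Leaving out F CT2 replicate 3 and LKO CT2 replicate 3 raised the count to 75 (34 positive and 41 negative), with 20 of the 23 among them. Without F CT2 replicate 3 and F CT14 replicate 3 it was 28, with 16 of the 23. Leaving out single libraries gave from 12 (without LKO CT14 replicate 2) to 57 genes (without LKO CT2 replicate 3). Calls of 12 of the 23 held in each of the 12 fits that left out 1 library, among them Npas2, Gm11454, 3930402G23Rik, Cdkn1a, Ppard, Tef, Wee1, Per3, Papss2, Gys2 and Acacb. The other 11 lost their call in 5 to 10 of these fits. With only the 12 libraries of the comparison in the model, 11 genes were called, 8 of them among the 23 (Npas2, Per3, Tef, Gm11454, Ppard, Loxl4, Wee1 and Acacb). At an unadjusted p under 0.05 there were 1276 genes (6.22%).

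**Figure D1:**
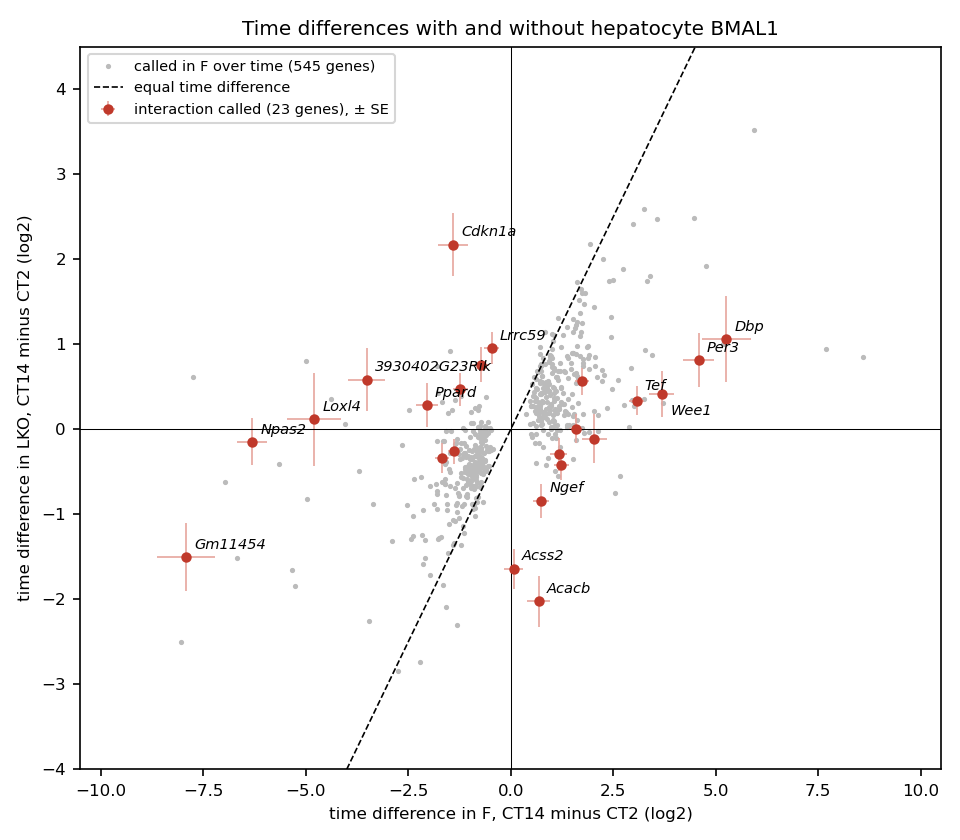
Time difference (CT14 minus CT2, log2) in F on the horizontal axis and in LKO on the vertical axis, with red points and SE bars for the 23 genes with a called interaction and grey points for the 545 genes called over time in F. The dashed line marks equal differences. Npas2 lies at -6.31 in F and -0.15 in LKO, and Cdkn1a is positive in LKO and negative in F.

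Promoter sequences from RefSeq (GRCm38.p6, the 250 bases before the annotated start) were matched by symbol for 18 of the 23 genes, with 22 starts. They were searched on both strands for the E-box CACGTG, the E-prime box CACGTT, the D-box TTATGTAA or TTACGTAA, and the core of the ROR element TAGGTCA or TGGGTCA. No match overlapped another in the sequences shown. Among the 9 genes with a positive interaction and a sequence, 1 held an E-box (Gm11454) and none another motif. Among the 9 with a negative interaction, 2 held an E-box (Tef and Bnip3), 2 an E-prime box (Papss2 and Acacb), 1 a D-box (Per3) and 1 a ROR element core (Ngef). Over all 27025 genes with such a sequence, 6.86% held an E-box, 4.5% an E-prime box, 1.1% a D-box and 6.15% a ROR element core. Shown are the called genes with an E-box, a D-box or a ROR element core. Tef has an E-box before each of its starts, Per3 has a pair of D-boxes, Bnip3 and Gm11454 have 1 E-box each and lie on opposite sides of the comparison, and Ngef has the ROR element core. They lie at chr15:81802423-81802672 (plus strand) and chr15:81811164-81811413 (plus strand) for Tef, chr4:151044666-151044915 (minus strand) for Per3, chr7:138909507-138909756 (minus strand) for Bnip3, chr2:163122365-163122614 (plus strand) for Gm11454 and chr1:87573871-87574120 (minus strand) for Ngef. Each is written 5′ to 3′ on the gene's strand, with the matched motif in capitals. A match is a string of letters and not a measured binding site.
Tef, first start: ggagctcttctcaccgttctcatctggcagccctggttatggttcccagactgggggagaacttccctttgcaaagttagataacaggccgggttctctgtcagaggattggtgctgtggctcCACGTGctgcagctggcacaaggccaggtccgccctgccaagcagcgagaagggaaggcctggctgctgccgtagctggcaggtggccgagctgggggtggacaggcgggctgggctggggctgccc
Tef, second start: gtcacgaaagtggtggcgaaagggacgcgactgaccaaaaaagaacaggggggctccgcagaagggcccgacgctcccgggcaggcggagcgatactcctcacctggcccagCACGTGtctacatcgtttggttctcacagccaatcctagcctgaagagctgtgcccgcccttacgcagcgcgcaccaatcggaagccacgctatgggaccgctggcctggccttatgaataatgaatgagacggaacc
Per3: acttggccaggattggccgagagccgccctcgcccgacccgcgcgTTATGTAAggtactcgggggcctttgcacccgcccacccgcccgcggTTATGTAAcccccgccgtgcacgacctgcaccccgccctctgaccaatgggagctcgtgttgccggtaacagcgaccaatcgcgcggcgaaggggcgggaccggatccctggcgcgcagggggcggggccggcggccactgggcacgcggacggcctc
Bnip3: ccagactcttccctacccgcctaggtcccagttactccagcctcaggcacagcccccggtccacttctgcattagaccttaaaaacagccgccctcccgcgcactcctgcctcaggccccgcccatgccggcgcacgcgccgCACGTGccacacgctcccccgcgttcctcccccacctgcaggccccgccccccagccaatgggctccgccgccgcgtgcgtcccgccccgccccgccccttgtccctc
Gm11454: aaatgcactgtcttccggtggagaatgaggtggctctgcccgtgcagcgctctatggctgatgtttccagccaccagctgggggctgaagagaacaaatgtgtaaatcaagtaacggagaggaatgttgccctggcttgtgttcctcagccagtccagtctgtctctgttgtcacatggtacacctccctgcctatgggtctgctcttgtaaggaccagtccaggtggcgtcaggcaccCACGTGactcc
Ngef: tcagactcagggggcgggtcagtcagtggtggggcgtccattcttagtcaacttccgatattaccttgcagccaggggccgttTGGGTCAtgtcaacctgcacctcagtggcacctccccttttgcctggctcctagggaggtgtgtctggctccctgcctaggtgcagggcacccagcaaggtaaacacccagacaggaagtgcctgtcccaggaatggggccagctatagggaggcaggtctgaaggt

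The D-boxes of Per3 begin 205 and 158 bases before its start, and the E-boxes of Tef 127 and 138 bases before the respective starts. Those of Bnip3 and Gm11454 begin 108 and 11 bases before the start, and the ROR element core of Ngef 167 bases before it. Of the clock genes that were not called, Ciart held 3 E-boxes, Cry1 an E-box and an E-prime box, and Per1 and Bhlhe41 an E-box. Nr1d1 and Cry2 held an E-prime box and Nfil3 a ROR element core. Clock, Nr1d2, Rora and Hlf, also not called, held none of these motifs, nor did the called clock genes Npas2 and Dbp. Over all genes with a sequence, 6.86% held an E-box, 4.5% an E-prime box and 6.15% a ROR element core.

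Among the clock activators, Npas2 (ENSMUSG00000026077) had the smallest p of all genes. It was at 11.1, 10.7 and 7.27 CPM in F at CT2, against 0.184, 0.0573 and 0.119 CPM in F at CT14. Levels in LKO were 15.3, 18.8 and 29.8 CPM at CT2, against 21.5, 20.6 and 15.5 CPM at CT14. The F libraries were fully separated by time, the LKO libraries were not, and every LKO library at either time exceeded every F library. Over all genes tested, the libraries of CT2 and CT14 did not overlap for 19.2% in F and 20.7% in LKO. The time difference was -6.31 ± 0.37 (log2 ± SE, n = 3 in each group) in F, a 79.2-fold fall, and -0.15 ± 0.28 in LKO, with an interaction of 6.16 ± 0.45 (edgeR adjusted p = 1.88e-07). Bmal1 itself had an interaction of 1.19 ± 0.49 that was not called (adjusted p = 0.675, 95% interval 0.17 to 2.22 before adjustment). Its F time difference was -1.58 ± 0.35 and its LKO time difference -0.39 ± 0.35. What remains of Bmal1 RNA in LKO cannot be told apart as transcript of the deleted allele or of other cells. Mean Bmal1 in the global knockout was 7.39 CPM at CT2 and 7.10 CPM at CT14, beside 7.37 and 5.64 CPM in LKO. The source of this RNA was not tested. The interaction of Clock was 0.76 ± 0.69 (adjusted p = 1), with F CT2 replicate 3 (7.41 CPM) and LKO CT2 replicate 3 (13.1 CPM) far below the other libraries (26.6 to 62.9 CPM).

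Of the 8 clock repressors 7 were called higher at CT14 in F (1.33% of all genes tested), and 1, Per3, had a called interaction (0.112%). Per3 (ENSMUSG00000028957), a PERIOD protein gene, was at 1.15, 0.391 and 0.693 CPM at CT2, against 14.5, 18.8 and 20.1 CPM at CT14 in F. In LKO it was at 3.40, 3.24 and 2.48 CPM at CT2, against 5.84, 5.45 and 4.76 CPM at CT14. The LKO libraries were still separated by time, though without a time call (edgeR adjusted p = 0.271), and all of them lay between the F groups. The authors' deposited DESeq2 comparison called this rise in LKO (adjusted p = 0.0347). The interaction was -3.77 ± 0.46 (edgeR adjusted p = 0.000406), from 4.58 ± 0.37 in F to 0.81 ± 0.32 in LKO. Per2, another PERIOD gene, kept a called rise in LKO (1.80 ± 0.35, adjusted p = 0.0299) beside 3.39 ± 0.37 in F. Its levels at CT14 were 60.3, 65.5 and 68.9 CPM in F and 33.2, 43.0 and 41.9 CPM in LKO, without overlap, and its interaction of -1.59 ± 0.48 was not called (adjusted p = 0.363). Cry2, a cryptochrome gene, rose in F from 18.2, 20.6 and 20.0 CPM to 37.0, 38.5 and 40.0 CPM. The LKO libraries were at 35.7, 43.0 and 52.4 CPM at CT2, against 45.4, 45.2 and 43.3 CPM at CT14, near or above the F maximum at both times. Its interaction of -0.94 ± 0.22 had an adjusted p of 0.133. Cry1 (-0.67 ± 0.26, adjusted p = 0.61), Bhlhe40 (-1.22 ± 0.39, adjusted p = 0.42), Per1 (-1.57 ± 0.86, adjusted p = 0.865) and Ciart (-2.42 ± 1.44, adjusted p = 0.902) had interactions of the same sign that were not called. Bhlhe41 had 1.08 ± 1.38 (adjusted p = 1). F CT14 replicate 1 had the highest Dbp, Ciart, Per1, Nr1d1 and Bhlhe41 of its group and the lowest Bmal1. It also had the lowest Per2, Per3, Cry1 and Cry2 of that group.

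Of 4 genes, the PAR-bZIP factors Dbp, Tef and Hlf and the related Nfil3, Dbp and Tef were called, each with a negative interaction (0.0585% of all genes tested). Tef (ENSMUSG00000022389) was at 13.3, 16.2 and 22.4 CPM at CT2, against 178, 121 and 137 CPM at CT14 in F. Its LKO libraries held 68.0, 71.1 and 85.2 CPM at CT2, against 92.6, 95.1 and 95.6 CPM at CT14. The time groups of LKO did not overlap, but their gap was small beside that of F and was not called (edgeR adjusted p = 0.469). The time difference fell from 3.07 ± 0.19 in F to 0.34 ± 0.17 in LKO, an interaction of -2.73 ± 0.25 (edgeR adjusted p = 6.08e-06). Dbp (ENSMUSG00000059824) was at 0.456, 0.498 and 0.440 CPM at CT2, against 35.5, 5.66 and 12.4 CPM at CT14 in F, and the CT14 libraries of F varied more than those of any other group. LKO libraries had 3.39, 2.75 and 3.06 CPM at CT2, against 7.38, 5.72 and 6.07 CPM at CT14, overlapping the F libraries at CT14. The LKO libraries did not overlap between times. Their time difference of 1.06 ± 0.50 was not called (edgeR adjusted p = 0.411), while the authors' deposited DESeq2 comparison called it (adjusted p = 0.0015). The interaction was -4.20 ± 0.75 (adjusted p = 0.0219) and was not called in 7 of the 12 fits that left out 1 library (adjusted p up to 0.0999). Hlf kept a called rise in LKO (0.88 ± 0.19, adjusted p = 0.0373) beside 1.59 ± 0.20 in F, with an interaction of -0.71 ± 0.27 (adjusted p = 0.602). Nfil3, a repressor at D-boxes, was lower at CT14 in both genotypes, with time differences of -1.27 ± 0.18 in F and -0.77 ± 0.18 in LKO, with an interaction of 0.50 ± 0.25 (adjusted p = 0.823).

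Of the REV-ERB genes, neither Nr1d2 nor Nr1d1 was called. Nr1d2, the gene of REV-ERB beta, was at 8.06, 12.05 and 6.80 CPM at CT2, against 43.7, 33.7 and 35.3 CPM at CT14 in F. Its LKO libraries were at 5.69, 6.198 and 2.18 CPM and at 9.49, 7.86 and 8.02 CPM, within or below the range of F at CT2, with an interaction of -1.22 ± 0.43 (adjusted p = 0.516). Nr1d1, the gene of REV-ERB alpha, was at 6.55 to 27.4 CPM in the F libraries at both times and at 2.48 to 5.42 CPM in the LKO libraries. It had no called time difference in either genotype.

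**Figure D2:**
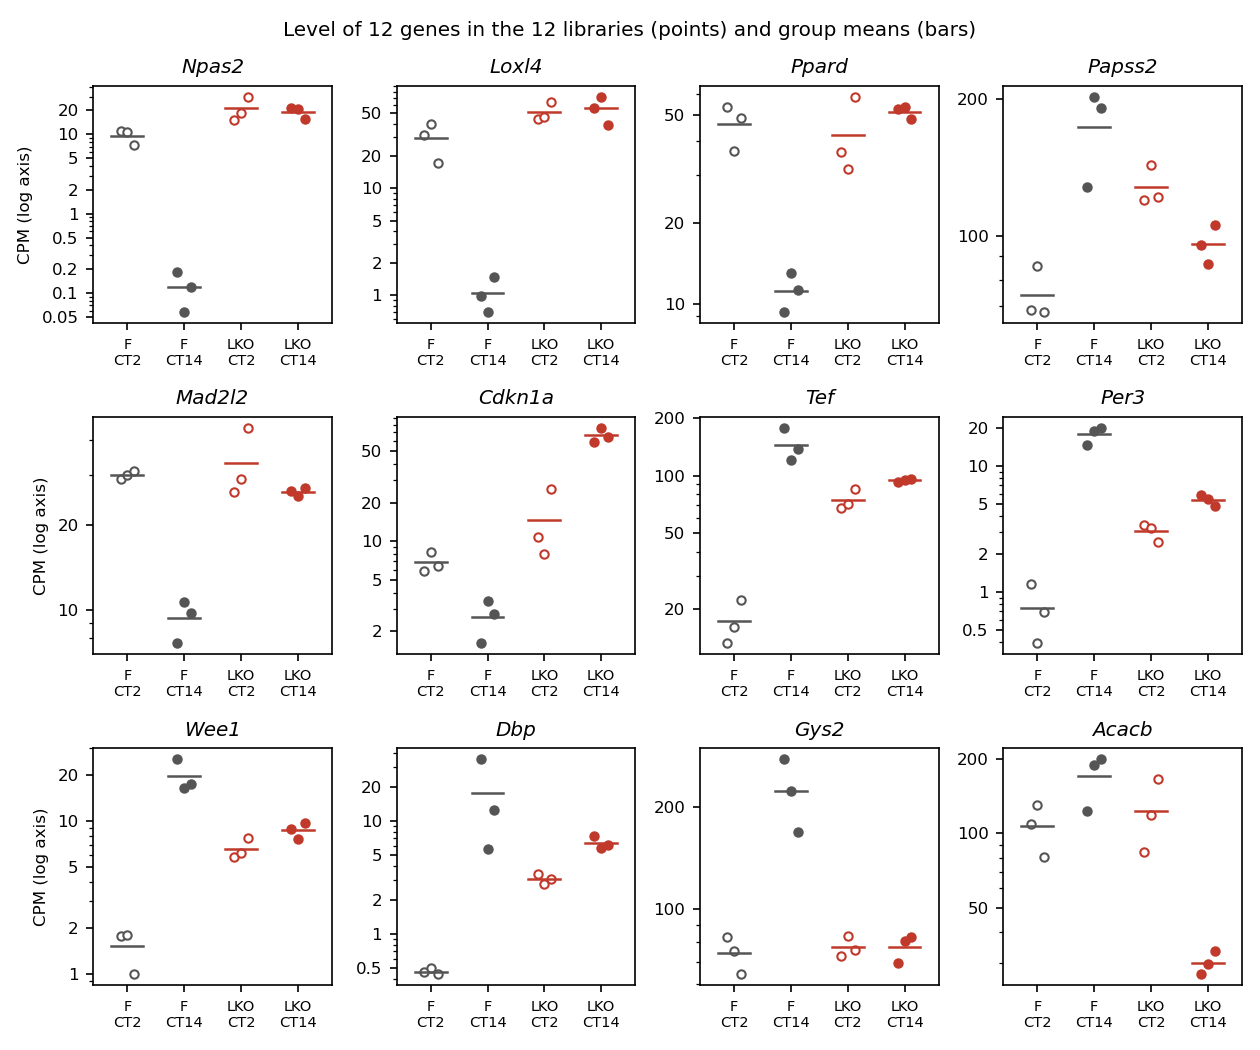
Level of 12 genes in each of the 12 libraries (points, CPM on a log axis) with group means (bars), open points for CT2 and filled points for CT14, grey for F and red for LKO. In Npas2, Loxl4, Ppard and Mad2l2 the F libraries fall at CT14 and the LKO libraries stay high, while in Tef, Per3, Wee1, Dbp, Papss2 and Gys2 the F libraries rise at CT14.

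Cell cycle regulators moved in both directions. Wee1 (ENSMUSG00000031016), the kinase gene whose product delays entry into mitosis, was at 1.79, 1.82 and 1.002 CPM at CT2, against 25.5, 16.3 and 17.5 CPM at CT14 in F. In LKO it was at 5.83, 6.22 and 7.74 CPM at CT2, against 8.91, 7.69 and 9.76 CPM at CT14, between the F groups and overlapping between times. Its interaction was -3.27 ± 0.40 (edgeR adjusted p = 0.000406). Cdkn1a (ENSMUSG00000023067), which encodes the cyclin-dependent kinase inhibitor p21, was at 5.93, 8.30 and 6.41 CPM at CT2, against 1.62, 3.42 and 2.71 CPM at CT14 in F. LKO libraries held 10.8, 7.91 and 25.4 CPM at CT2, against 58.5, 76.0 and 64.4 CPM at CT14. The direction was opposite in the 2 genotypes without overlap between times in either, with time differences of -1.41 ± 0.37 (adjusted p = 0.0405) in F and 2.17 ± 0.37 (adjusted p = 0.0139) in LKO. The interaction was 3.59 ± 0.52 (adjusted p = 0.00284). Of the 25 cell cycle genes listed these were the called ones (0.112% of all genes tested were called). The median interaction of the list was -0.41, against -0.03 over all genes tested. Mad2l2 (ENSMUSG00000029003), a subunit of DNA polymerase zeta, fell in F from 29.1, 30.1 and 31.1 CPM to 7.65, 10.7 and 9.81 CPM. The LKO libraries were at 26.2, 29.2 and 44.1 CPM and at 26.4, 25.3 and 27.0 CPM, all above the F libraries at CT14. Its interaction was 1.34 ± 0.25 (adjusted p = 0.0328), not called in 9 of the 12 fits without 1 library.

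The called genes of glycogen and acetyl-CoA metabolism, Gys2, Acacb and Acss2, had negative interactions. Gys2 (ENSMUSG00000030244), liver glycogen synthase, was at 82.9, 75.3 and 64.3 CPM at CT2, against 278, 223 and 169 CPM at CT14 in F. Levels in LKO were 72.8, 83.5 and 75.6 CPM at CT2, against 69.4, 80.6 and 82.8 CPM at CT14, at the level of F at CT2 at both times. The time difference was 1.59 ± 0.17 in F and 0.01 ± 0.17 in LKO, with an interaction of -1.58 ± 0.24 (edgeR adjusted p = 0.00423). Acacb (ENSMUSG00000042010), the acetyl-CoA carboxylase whose product malonyl-CoA restrains fatty acid entry into mitochondria, was at 110, 130 and 80.3 CPM at CT2, against 123, 189 and 200 CPM at CT14 in F. LKO libraries held 83.9, 119 and 165 CPM at CT2, against 27.1, 29.7 and 33.5 CPM at CT14. Here the F groups overlapped and the LKO libraries at CT14 were below all others. The LKO time difference was -2.03 ± 0.30 and the interaction -2.71 ± 0.41 (adjusted p = 0.00423). Acss2 (ENSMUSG00000027605), which makes acetyl-CoA from acetate, was at 182, 204 and 185 CPM at CT2, against 140, 274 and 186 CPM at CT14 in F. In LKO it was at 509, 487 and 753 CPM at CT2, against 191, 165 and 205 CPM at CT14. It was the LKO libraries at CT2 that stood above the other 9. Its interaction was -1.71 ± 0.33 (adjusted p = 0.0382), not called in 10 of the 12 fits without 1 library.

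Of the 25 lipogenesis and triglyceride genes Acacb was the called one (0.112% of all genes tested were called), and 12 had a negative and 0 a positive interaction at an unadjusted p under 0.05. Of all genes tested, 3.3% were negative and 2.92% positive at that p. The median of the list was -0.75. Thrsp, a gene linked to fatty acid synthesis, had 163 CPM as the mean of F at CT2, 1779.95 CPM of F at CT14, 144 CPM of LKO at CT2 and 263 CPM of LKO at CT14 (interaction -2.57, adjusted p = 0.112). The fatty acid synthase gene Fasn was at 573, 1959, 499 and 563 CPM in the same order (-1.60, adjusted p = 0.381), and Acly, ATP citrate lyase, at 276, 423, 402 and 263 CPM (-1.23, adjusted p = 0.251). In the glucose and glycogen list, of 22 genes, Gys2 was called, 5 were negative and 1 positive at an unadjusted p under 0.05, and the median was -0.20. The glucose transporter gene Slc2a2 had an interaction of -1.10 (adjusted p = 0.156). Ppp1r3c, a subunit that directs protein phosphatase 1 to glycogen, had 1.87 (adjusted p = 0.23).

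Further metabolic genes were called in each direction. Papss2 (ENSMUSG00000024899), which makes the sulfate donor PAPS, rose in F from 68.8, 85.6 and 67.8 CPM to 128, 202 and 191 CPM. Its LKO libraries had 120, 143 and 122 CPM at CT2, against 95.4, 86.5 and 106 CPM at CT14. They were separated the other way round, but without a time call (-0.42 ± 0.18, edgeR adjusted p = 0.329). The interaction was -1.65 ± 0.25 (edgeR adjusted p = 0.00423). Nmrk1 (ENSMUSG00000037847), nicotinamide riboside kinase of NAD synthesis, rose in F from 10.004, 7.64 and 3.604 CPM to 30.5, 30.8 and 26.2 CPM. LKO libraries stayed between 7.11 and 10.4 CPM at both times, with an interaction of -2.16 ± 0.41 (adjusted p = 0.0382). It was not called in 9 of the 12 fits without 1 library (adjusted p up to 0.157), nor by limma (adjusted p = 0.098). Nampt, which feeds the same pathway, had -1.30 (adjusted p = 0.611). Ppard (ENSMUSG00000002250), a nuclear receptor for fatty acids, fell in F from 53.8, 36.8 and 49.0 CPM to 9.33, 13.0 and 11.3 CPM. It was at 36.5, 31.7 and 58.5 CPM and at 52.7, 53.5 and 48.3 CPM in LKO, where the times overlapped. The interaction was 2.34 ± 0.37 (adjusted p = 0.00545).

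The remaining called genes had other or unknown roles. Loxl4 (ENSMUSG00000025185), a lysyl oxidase that acts on collagen and elastin, fell in F from 31.5, 39.7 and 17.1 CPM to 0.981, 0.697 and 1.48 CPM. Levels in LKO were 44.6, 45.9 and 64.0 CPM at CT2, against 56.3, 71.6 and 39.4 CPM at CT14, with an interaction of 4.92 ± 0.83 (edgeR adjusted p = 0.0192), not called in 5 of the 12 fits without 1 library (adjusted p up to 0.0917). All but 1 of these LKO libraries were above every F library. Gm11454 (ENSMUSG00000086152) was at 1.02, 0.821 and 1.19 CPM in F at CT2, against 0, 0 and 0.00918 CPM in F at CT14, which are 300 counts against 1. The ratio of these counts, scaled by library, was 331 (95% interval for counting error only 59.004 to 13127). In LKO it was at 8.29, 8.91 and 10.4 CPM at CT2, against 3.52, 3.92 and 2.28 CPM at CT14. Every LKO library was therefore above every F library, and the interaction was called (adjusted p = 0.00133). By limma on log2(TPM + 0.1), a scale that understates changes of low levels, it was 1.19 and not called (adjusted p = 0.37). 3930402G23Rik (ENSMUSG00000038917) was at 1.03, 2.06 and 1.82 CPM and 0.123, 0.267 and 0.0367 CPM in F, and at 6.42, 9.38 and 4.44 CPM and 9.05, 11.9 and 9.43 CPM in LKO. Its interaction was 4.10 ± 0.57 (adjusted p = 0.00186). Whether counting used strand is not given in the sources used here, so reads of these transcripts and of any gene on the opposite strand cannot be told apart.

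Lrrc59 (ENSMUSG00000020869), a ribosome-binding protein of the endoplasmic reticulum, was called over time in LKO and not in F. It was at 150, 170 and 186 CPM at CT2, against 139, 111 and 115 CPM at CT14 in F, and at 70.1, 71.6 and 94.8 CPM and 134, 165 and 160 CPM in LKO. The LKO libraries at CT2 were the low ones. Its interaction was 1.43 ± 0.26 (edgeR adjusted p = 0.0276). Slc30a10 (ENSMUSG00000026614), a manganese exporter, was at 76.8, 81.8 and 47.8 CPM and 29.4, 51.0 and 44.3 CPM in F, where the times overlapped, and at 53.2, 42.9 and 48.0 CPM and 75.1, 93.5 and 75.8 CPM in LKO (1.49 ± 0.29, adjusted p = 0.0485). Adck5 (ENSMUSG00000022550) was at 35.1, 29.9 and 41.9 CPM and 15.4, 12.9 and 12.5 CPM in F, and at 45.3 to 53.5 CPM and 39.1 to 43.2 CPM in LKO (1.13 ± 0.20, adjusted p = 0.0219). Ngef (ENSMUSG00000026259), a guanine nucleotide exchange factor, was at 19.1, 15.4 and 21.4 CPM and 31.2, 26.9 and 35.0 CPM in F. The LKO libraries were at 28.9, 28.4 and 36.3 CPM and 20.8, 15.9 and 15.6 CPM, the reverse order. Its interaction was -1.58 ± 0.28 (adjusted p = 0.0219), while its time calls were just under the threshold in F (adjusted p = 0.04999) and LKO (adjusted p = 0.0488). The authors' deposited DESeq2 comparisons did not call Ngef in F (0.71, adjusted p = 0.161) and called it in LKO (-0.85, adjusted p = 0.00965). Bnip3 (ENSMUSG00000078566), a receptor for the removal of mitochondria, rose in F from 44.9, 58.7 and 50.2 CPM to 194, 164 and 157 CPM. Levels in LKO were 73.8, 78.9 and 54.6 CPM and 103, 104 and 98.8 CPM, still separated by time but without a time call (adjusted p = 0.108). The interaction of Bnip3 was -1.18 ± 0.23 (adjusted p = 0.0402). Of these 5 genes each lost its call in 5 or more of the 12 fits without 1 library.

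Of the 19 genes with a time call in F, 17 are described here by where LKO stood within the F range. This place was expressed on the log2 scale, with the lower F group mean at 0% and the higher at 100%. The 8 genes high at CT2 in F were at 88.2% or above in LKO at both times, from Mad2l2 (108% at CT2 and 88.2% at CT14) to Cdkn1a (177% and 331%). Npas2 was at 118% and 116%, Loxl4 at 117% and 119%, and Ppard at 93.2% and 107%. Among the 9 high at CT14 in F, Tef, Wee1, Dbp, Per3, Papss2 and Bnip3 lay between 24.7% and 79.7% at both times. Tef was at 68.8% and 79.7%, Wee1 at 57.0% and 68.3%, Dbp at 51.7% and 71.8%, and Per3 at 44.3% and 62.1%. Papss2 was at 64.4% and 30.3% and Bnip3 at 24.7% and 57.1%. Ngef was at 101% at CT2 and -12.8% at CT14. Gys2 was at 3.74% and 4.09% and Nmrk1 at 14.4% and 8.87%, close to the lower F level. Fewer cells of a type and less RNA per cell cannot be told apart in such bulk levels.

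**Figure D3:**
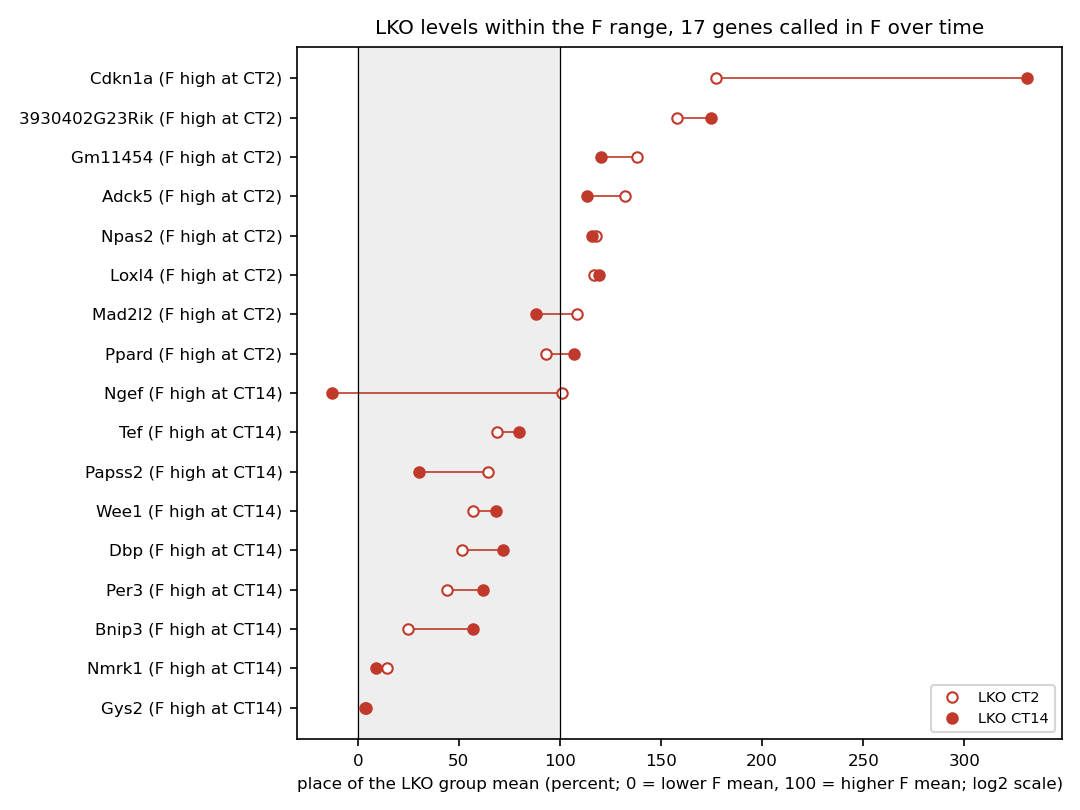
Place of the LKO group means at CT2 (open) and CT14 (filled) within the range of the F means, in percent on the log2 scale, for 17 of the 19 genes with a called interaction and a time call in F. The grey band is the F range. Genes high at CT2 in F lie near or to the right of 100%, and Gys2 and Nmrk1 lie near 0%.

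Over all 29 gene groups, those already described included, 11 of 506 distinct tested genes were called (2.17%, against 0.112% of all genes tested), in 10 of the groups. The groups were chosen with results of these data known, so this share is a description. Of the 21 genes of ATF4 and endoplasmic reticulum stress 0 were called and 6 were positive and 1 negative at an unadjusted p under 0.05. Of all genes tested, 2.92% were positive and 3.3% negative at that p. The median interaction of the list was 0.62. The transcription factor gene Atf5 went from 414 to 177 CPM in F and from 347 to 456 CPM in LKO (1.62, adjusted p = 0.114). Creld2, Sdf2l1 and Manf, which are induced when proteins misfold in that compartment, had 2.29, 2.05 and 1.35 (adjusted p = 0.668, 0.453 and 0.44). The negative member was Atf3, with means of 0.831 and 3.63 CPM in F and 1.15 and 1.14 CPM in LKO (-2.14, edgeR adjusted p = 0.307). Of 27 xenobiotic metabolism genes 0 were called and 6 were negative at an unadjusted p under 0.05 (3.3% of all genes tested), with a median of -0.61. Por, the reductase that supplies electrons to cytochromes P450, had means of 133 and 497 CPM in F and 151 and 148 CPM in LKO (-1.93, adjusted p = 0.147). Alas1, the first enzyme of haem synthesis, had 73.6 and 592 CPM in F and 111 and 134 CPM in LKO (-2.74, adjusted p = 0.304).

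Some time differences were present in both genotypes. Of the genes tested, 57 (0.278%) were called over time with the same sign in F and LKO, 31 higher and 26 lower at CT14. Of these 57, 0 had a called interaction, against 0.112% of all genes tested. Choosing genes for the same sign in both genotypes makes a called interaction unlikely, so this 0 is no test. The time calls in LKO fell to between 10 and 59 when a single LKO library was left out. Usp2, a deubiquitinase gene, went from 0.935, 2.04 and 1.23 CPM to 44.9, 20.0 and 27.98 CPM in F and from 3.51, 2.18 and 4.23 CPM to 14.8, 17.9 and 22.8 CPM in LKO. The rise was 4.46 ± 0.39 in F and 2.48 ± 0.35 in LKO, and the interaction of -1.98 missed the threshold (edgeR adjusted p = 0.147). St3gal5, which makes the ganglioside GM3, rose by 2.50 ± 0.18 and 1.76 ± 0.18, and Fkbp5, induced by glucocorticoids, by 2.74 ± 0.28 and 1.88 ± 0.28. G0s2, an inhibitor of adipose triglyceride lipase, rose by 1.93 ± 0.50 in F and 2.18 ± 0.50 in LKO, and its interaction of 0.26 had a 95% interval of -1.18 to 1.69. Chac1, which degrades glutathione, was at 3.97, 5.46 and 7.95 CPM at CT2, against 0.797, 0.764 and 1.01 CPM at CT14 in F, and at 3.91, 3.89 and 4.37 CPM and 0.525, 0.348 and 0.816 CPM in LKO. Its interaction of -0.09 had a 95% interval of -1.39 to 1.21. Gas7 had time differences of -1.98 ± 0.34 in F and -1.71 ± 0.33 in LKO, from levels at CT2 of 4.95 to 7.26 CPM in F and 21.4 to 25.9 CPM in LKO. Of 18 heat shock chaperone genes, which respond to body temperature among other signals, 5 were called higher at CT14 in F (1.33% of all genes tested) and 1 in LKO (0.444%). Their median time difference was 0.91 in F and 0.82 in LKO, 0 of them had a called interaction, and 0 had an unadjusted p under 0.05. Hsph1 was called in both, with 1.63 in F (adjusted p = 0.0215) and 1.73 in LKO (adjusted p = 0.0373).

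The global knockout gave the same contrast in other libraries with their own controls. In KO against WT 164 genes were called (0.799%), 103 positive and 61 negative. Of the 23 genes called in LKO against F, 15 were called there too, all with the same sign, and 21 had the same sign, which 52.8% of all genes tested had. Npas2 had 7.44 ± 0.48 in KO against WT (edgeR adjusted p = 1.58e-08) beside 6.16 ± 0.45, and Tef -3.11 ± 0.25 (adjusted p = 6.63e-07) beside -2.73 ± 0.25. Gys2 had -2.01 ± 0.24 (adjusted p = 0.000145). Among the 8 genes not called there were Ppard, Lrrc59, Papss2, Acacb, Ngef, Nmrk1 and Acss2. Ppard had 1.54 ± 0.36, just above the threshold (edgeR adjusted p = 0.0509), and Nmrk1 -1.32 ± 0.41 (edgeR adjusted p = 0.192). Acacb had -0.88 ± 0.41 and Ngef -0.46 ± 0.28, and all of these had the sign of LKO against F. Acss2 had 0.32 ± 0.33 and Lrrc59 -0.23 ± 0.26, signs opposite to LKO against F, and Papss2 had -0.19 ± 0.25. The difference between the interactions of the liver and the global knockout was tested directly. Over all genes 0 were called by edgeR, 1242 (6.05%) had an unadjusted p under 0.05, and the smallest adjusted p was 0.116. DESeq2 called 53 and limma 0. Among the 23 genes, 5 had an unadjusted p under 0.05: Lrrc59 (difference 1.66, 95% interval 0.89 to 2.43), Acss2 (-2.03, -2.996 to -1.07), Papss2 (-1.46, -2.20 to -0.72), Acacb (-1.83, -3.03 to -0.63) and Ngef (-1.12, -1.94 to -0.30). The smallest adjusted p among them was 0.241, so none passed the correction. For Adck5 (-0.01, -0.61 to 0.58) and Bnip3 (-0.02, -0.69 to 0.65) the intervals were narrow, and for Gm11454 (0.98, -1.37 to 3.33) wide. The global knockout also lacks the gene outside hepatocytes, and the labels give no strain background for F and LKO, so these differences cannot be told apart here.

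**Figure D4:**
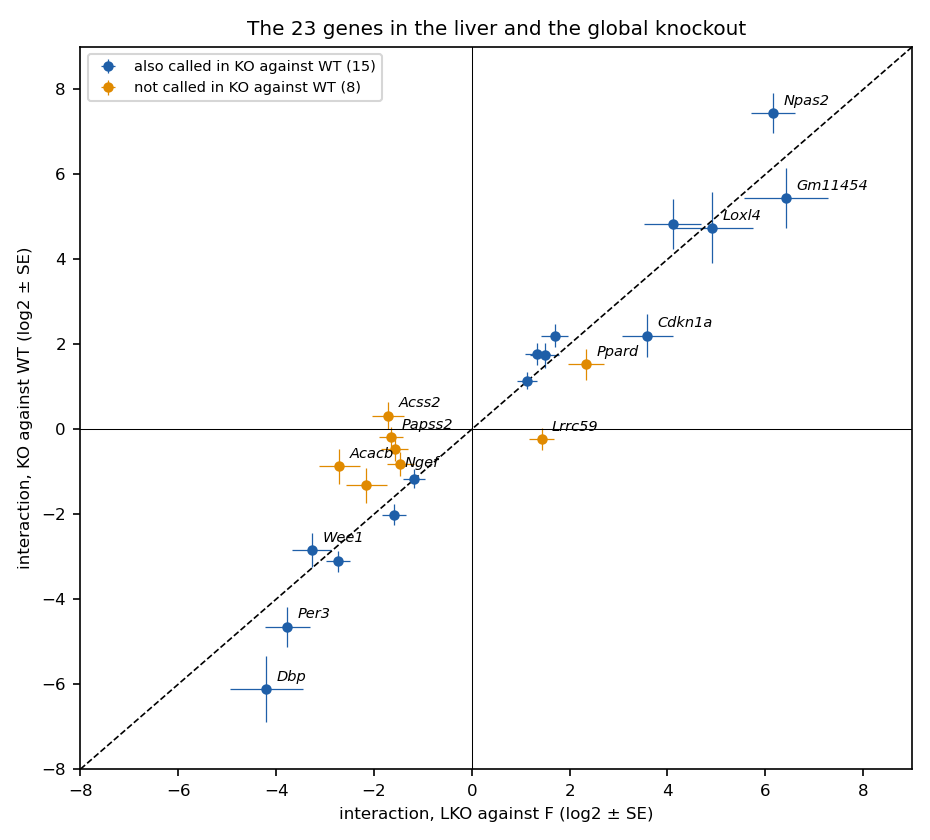
Interaction of time and genotype (log2 ± SE) in LKO against F (horizontal axis) and in KO against WT (vertical axis) for the 23 genes, blue where also called in KO against WT (15) and orange where not (8). The dashed line marks equal values. Acss2 and Lrrc59 lie on opposite sides of 0 in the 2 contrasts.

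A set of time-dependent genes was also taken from the WT libraries, which the LKO and F comparison does not use. There, 521 genes were called over time (2.54%), 226 higher and 295 lower at CT14. Signed by their direction in WT, their median time difference was 0.88 in F and 0.41 in LKO, against 0.14 and 0.10 over all genes tested signed the same way. Of the 521 genes, 510 had the WT sign in F and 447 in LKO. The time call itself was found with that sign for 254 in F and 56 in LKO. Of all genes tested, 2.66% in F and 0.848% in LKO were called over time in either direction. The interaction opposed the WT direction in 425 genes (81.6%, against 52.5% of all genes tested), with a median of -0.44. The interaction was called in 18 (3.45%, against 0.112%), each opposing. At an unadjusted p under 0.05 it opposed in 178 (34.2%, against 3.90% of all genes tested) and went along in 5. Without F CT2 replicate 3 and LKO CT2 replicate 3 the share opposing was 80.4%, and it was 75.4% without F CT14 replicate 1. Genes high at CT14 in WT had a median of 0.92 in F and 0.39 in LKO, and those low at CT14 0.85 and 0.45.

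**Figure D5:**
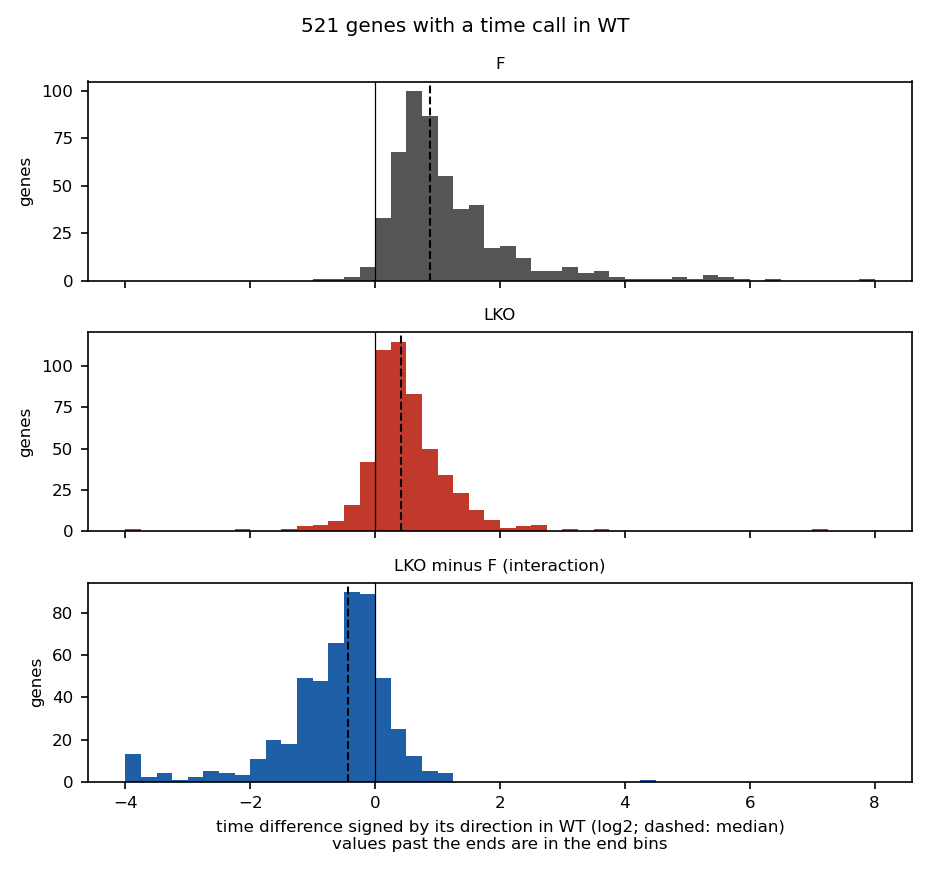
Histograms of the time difference (log2, signed by its direction in WT) in F, in LKO and of the interaction for the 521 genes with a time call in WT, with dashed lines at the medians of 0.88, 0.41 and -0.44. The LKO distribution lies closer to 0 than that of F and stays mostly on the positive side.

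Markers of 11 cell types gave 0 calls among 128 tested genes, against 0.112% of all genes tested. Neutrophil markers had the largest shift of the lists with more than 2 tested genes, with a median interaction of -3.10. Of these markers 4 of 11 were negative at an unadjusted p under 0.05 (3.3% of all genes tested) and none was called. Their summed level was 11.04 to 51.4 CPM in F at CT2, 3.55 to 71.6 CPM in F at CT14, 6.51 to 55.6 CPM in LKO at CT2 and 2.03 to 6.04 CPM in LKO at CT14, and no member was at 0 in all 12 libraries. S100a9, a defining neutrophil gene, had group means of 9.99, 12.4, 10.99 and 1.02 CPM in that order. The sums of Kupffer cell and macrophage markers overlapped between all 4 groups, at 551 to 1806, 699.9 to 1389, 798 to 1194 and 614 to 907 CPM. The part of these cells in the 23 calls was not tested.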

How the data were processed

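The 12 libraries of F and LKO and the 12 of KO and WT were polyadenylated liver RNA from a stranded kit, grouped by their titles. Estimated counts of each gene, not normalized, were deposited for every library, and the authors also gave TPM. The authors' deposited tables of the time comparisons give log2 fold changes and p-values from DESeq2. The submitters' processing notes name StringTie 1.3.1, HISAT2 2.2.1, fastp 0.23.2 and the build GRCm39, without annotation release or strand setting. Low counts pile up at multiples of 4, so the precision of low counts may be overstated, and division of all counts by 4 was one alternative.

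Counts, rounded, were fitted for all 24 libraries with 8 group means in edgeR 4.0.16 (R 4.3.3) with TMM scaling and filterByExpr (minimum count 10, minimum total 15). Genes with a Benjamini-Hochberg adjusted p under 0.05 over the 20514 tested are called. All 24 share 1 estimate of the spread. Each SE is the log2 difference divided by the square root of F, and 95% intervals use Student's t with the fit's degrees of freedom. The code was tested on simulated data. The alternatives were RLE scaling, other filters, DESeq2 1.42.0, limma 3.58.1 on log2(TPM + 0.1), only the libraries of each contrast, a replicate block, and leaving out libraries. Genes were named by rule: every tested clock gene of 4 lists, up to 15 called genes in each direction, called list members, up to 2 members with the smallest p in lists without a call, and up to 8 genes in each direction with the largest time differences called in both genotypes. Of the 23 called genes 2 are not reported here. Not every gene chosen by the rule is described, and other list members were named after their values were seen. Members and lists were chosen with earlier results of these data known. Of the authors' deposited calls over time, 409 in F and 606 in LKO, 297 and 152 had the same direction and a call in the present fit.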

Additional observations from a re-analysis of the deposited data

Results flagged for a closer look

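The test of the difference itself found unequal time differences in F and LKO for 23 genes, and in KO and WT for 164. Of the 23, 21 are given here. The interaction LKO against F (log2) was 6.42 for Gm11454, 6.16 for Npas2, 4.92 for Loxl4, 4.10 for 3930402G23Rik, 3.59 for Cdkn1a, 2.34 for Ppard, 1.49 for Slc30a10, 1.43 for Lrrc59, 1.34 for Mad2l2 and 1.13 for Adck5. It was -1.18 for Bnip3, -1.58 for Gys2, -1.58 for Ngef, -1.65 for Papss2, -1.71 for Acss2, -2.16 for Nmrk1, -2.71 for Acacb, -2.73 for Tef, -3.27 for Wee1, -3.77 for Per3 and -4.20 for Dbp. The fitted value of Gm11454 rests on 1 count in F at CT14 and is no bound, and limma on log2(TPM + 0.1) gave 1.19 (adjusted p = 0.37). Groups of 3 libraries are too small for the test of single outlying samples.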

How the results depend on the processing

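All 23 genes called in LKO against F had the same sign in each of 23 alternative fits, and 23 were called by DESeq2, 19 with the replicate block, 13 by limma and 8 with only the 12 libraries of the contrast. The number of calls moved far more. For LKO against F it was 11 with only its own libraries, 75 without F CT2 replicate 3 and LKO CT2 replicate 3, 139 with DESeq2, 15 with limma on log2(TPM + 0.1), and 12 to 57 over the fits without 1 library. For the time difference in F it was 33 with only its own libraries, 207 without F CT2 replicate 3 and F CT14 replicate 3, 1203 with DESeq2, 658 without F CT2 replicate 3 and LKO CT2 replicate 3, and 240 to 578 without 1 library (240 without F CT14 replicate 1). For the time difference in LKO it was 87 without a filter on low counts, 81 with the replicate block, 46 with only its own libraries, 680 with DESeq2, 220 without F CT2 replicate 3 and LKO CT2 replicate 3, and 10 to 59 without 1 library (10 without LKO CT14 replicate 2 or 3). For KO against WT it was 417 with DESeq2 and 101 to 158 without 1 library. For the difference between both interactions it was 53 with DESeq2 and 0 to 2 without 1 library, and since it uses all 24 libraries, no fit with fewer of them by contrast exists. The share of genes called over time in WT whose interaction opposed that direction was 75.4 to 83.9% without 1 library. The cause of these moves was not tested, except that fits with fewer libraries have fewer degrees of freedom.

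Without F CT2, F CT14 and LKO CT2 replicate 3, an alternative chosen after seeing the data, 24 genes were called in LKO against F. The replicate block, which uses numbers not shown to pair the samples (same-numbered libraries correlated between -0.146 and 0.312 over all pairs of the 4 groups, and at 0.180, 0.143 and 0.312 between F and LKO at CT2), gave 20 calls in LKO against F. With it Slc30a10 (adjusted p = 0.0788), Acss2 (adjusted p = 0.0756) and Bnip3 (adjusted p = 0.0516) were not called. Signs reversed for genes that were not called: Nr1d1 was -0.14 without F CT2 replicate 3 and LKO CT2 replicate 3, -0.60 without F CT2 replicate 3 and F CT14 replicate 3, -0.38 without all 3 of these, and -0.36 without F CT2 replicate 3, and Bhlhe41 was -0.19 with limma. Over the fits without libraries, Nr1d1 reached 1.13, Bmal2 ran from -0.058 to 0.82 and Rora from -0.45 to 0.55. Depth limits the weakly expressed genes, such as Gm11454 with 1 count in F at CT14.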

Other observations

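Of the 75 genes called without F CT2 replicate 3 and LKO CT2 replicate 3, the following were chosen after their values were seen. Cbs, the first enzyme of transsulfuration, had an interaction of 1.08 (adjusted p = 0.0155) without these libraries and 1.21 (adjusted p = 0.161) with all. Atf5 had 1.60 (adjusted p = 0.0155), Por -2.11 (adjusted p = 0.0214), the zinc transporter gene Slc39a7 1.03 (adjusted p = 0.0155), the sterol transporter gene Abcg5 -1.53 (adjusted p = 0.0271) and Per1 -3.47 (adjusted p = 0.0414). With all libraries their adjusted p were 0.114, 0.147, 0.125, 0.403 and 0.865.

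Genes next to the called transcripts of unknown role in RefSeq's gene order were also read, chosen after the values were seen. Tox2, beside Gm11454, was lower at CT14 in both genotypes (-1.40 in F, adjusted p = 0.0192, and -1.36 in LKO, adjusted p = 0.0373), with an interaction of 0.04. Its level was far higher in LKO, with means of 17.97 CPM at CT2 and 7.01 CPM at CT14, against 0.685 and 0.260 CPM in F. Gm11454 was also higher in LKO, with means of 9.20 and 3.24 CPM, against 1.01 and 0.00306 CPM in F. Its time difference in LKO was -1.50 and not called (edgeR adjusted p = 0.0837). Irs2, the insulin receptor substrate gene beside 3930402G23Rik, fell in F (-2.09, adjusted p = 0.00368) and had -1.52 in LKO (adjusted p = 0.0554), with an interaction of 0.57.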
